A study of Bos taurus with 27 samples.

Results

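Major histocompatibility complex (MHC) molecules show peptides to T cells. Class I molecules pair a heavy chain with beta-2 microglobulin and carry peptides that the proteasome cuts in the cytosol and that the TAP transporter moves into the endoplasmic reticulum. Class II molecules pair an alpha with a beta chain, travel with the invariant chain to acidic compartments, and receive peptides there with the help of the DM and DO proteins. In a stratified epithelium such as that of the rumen, class II molecules are mainly known from dendritic cells, Langerhans cells and macrophages, while class I molecules are made by nearly all cells.

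The genes examined were those named on the array as BOLA-DRA, BOLA-DMA, BOLA-DMB, BOLA-DOA, CD74, B2M, CIITA, TAP1 and TAP2, where BOLA stands for the bovine MHC. Probes were chosen by gene name alone and not by their values. Of these 9 genes, 8 had a probe, 1 each, of 15008 probes in all, and CIITA, the class II transactivator, had none under that name. They were followed in the rumen epithelium (RE) of the same 9 Japanese Black beef cattle at 14, 21 and 29 months of age (the early, middle and late stage of fattening), with 1 biopsy per animal and stage and 27 1-color arrays. All cattle were castrated, carried a rumen fistula and were fed concentrate with rice straw at every stage. By the paper's account, concentrate intake was highest at the middle stage, and rice straw made up less of the diet at both later stages. The stages therefore differ in age, diet and time together, and no group of the same age on another diet was included. The tissue label of every sample is RE, although the extraction text in the labels names neutrophils and liver, tissues that no sample carries as its label.

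Levels are log2 processed signals relative to the median probe of the same array, so that 0 is the array's median and 1 unit is a 2-fold difference. A gene was called a differentially expressed gene (DEG) at a limma *P* below 0.05 after Benjamini-Hochberg adjustment over all 15008 probes. Within animals, the middle stage was compared with the early one (first period), the late with the middle one (second period), and the late with the early one (total period).

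The middle-stage arrays were dim, with median signals of 8.06 to 28.1 against 34.5 to 47.6 at the early and 31.4 to 46.0 at the late stage. After scaling to the array median, the median of the changes of all probes was 0.32 in the first, −0.27 in the second and 0.03 in the total period. Early and middle arrays lay mostly on different slides, while late arrays shared no slide and no scan day with another stage, so that slide and late stage cannot be told apart. Keratins of stratified epithelium such as KRT5 and KRT14 were well above background on all 27 arrays, whereas the probes of KRT4 and CD4 were not on any. Because biopsies are mixed tissue, fewer cells of a type and less RNA per cell cannot be told apart.

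The members lie mostly in the MHC region of bovine chromosome 23. On the UMD 3.1 build, as the array files give it, the probes of TAP2 (chr23:7079740-7079799), TAP1 (chr23:7125471-7125959), BOLA-DMB (chr23:7193574-7193633), BOLA-DMA (chr23:7206611-7206670) and BOLA-DOA (chr23:7218804-7218863) span 139 kb. BOLA-DRA (chr23:25587659-25587718) lies 18.4 Mb away on the same chromosome, CD74 on chromosome 7 (chr7:63749265-63749324) and B2M on chromosome 10 (chr10:104125793-104125852). Each probe is a 60-base oligonucleotide, and that of TAP1 covers 489 bases of the genome, so its target is not continuous there. Exon and UTR positions were not used here, since no annotation of that build was at hand. The B2M probe was designed from an expressed sequence tag and not from a reference mRNA.

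The probes that carry the main changes are shown 5′ to 3′ as deposited: the whole oligonucleotide for BOLA-DMA and TAP1, and its central 30 bases for the other 3. BOLA-DMA and TAP1 are shown for the late fall and the middle peak described further on, BOLA-DRA and CD74 for the class II chain and its chaperone, and B2M for the fall with the least signal behind it.
BOLA-DMA: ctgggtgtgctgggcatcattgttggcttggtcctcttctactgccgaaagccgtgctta
TAP1: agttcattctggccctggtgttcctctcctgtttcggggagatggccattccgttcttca
BOLA-DRA: cttcttattatcaccatgtaatgcctttgg
CD74: cagaacggcatagattagtggtacgcttgc
B2M: gcataaagcataaaagcatatcagtattaa

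**Figure D1:**
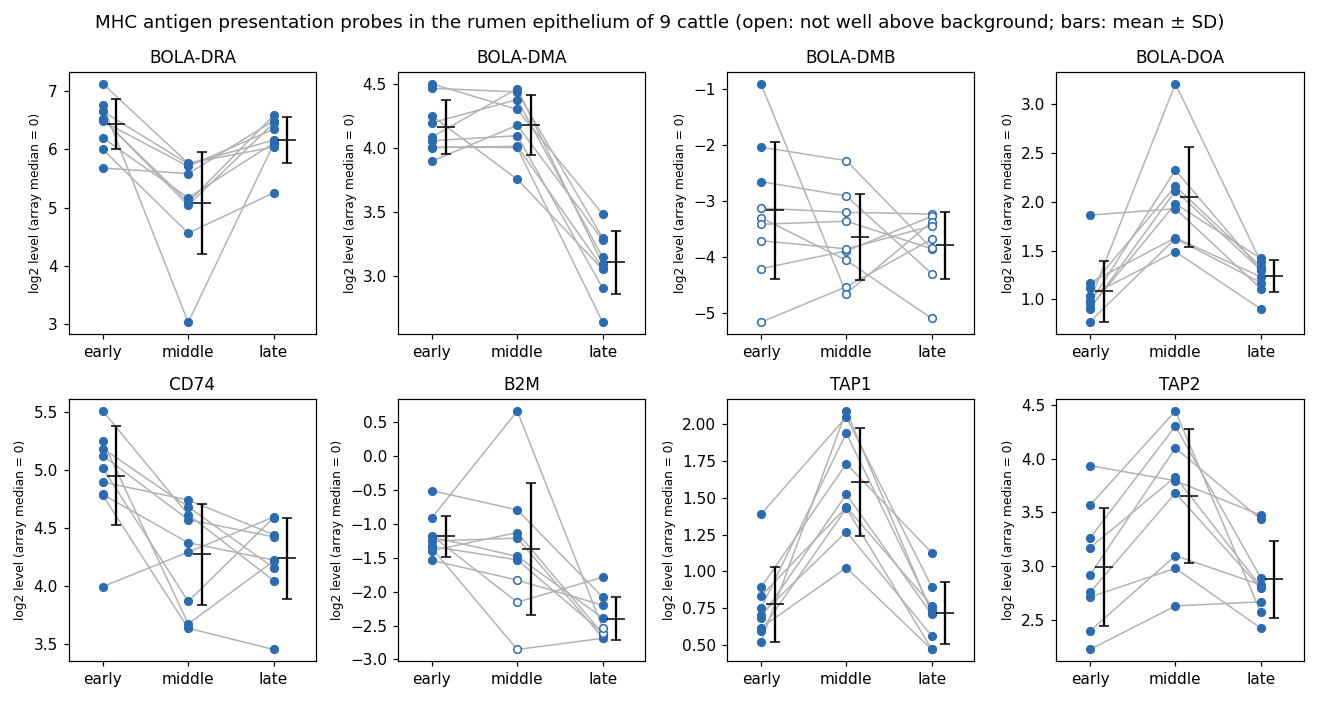
Levels of the 8 probes (log2, array median at 0) at the early, middle and late stages, with 1 point per animal, grey lines joining the 3 biopsies of an animal, and bars for the mean ± SD of 9 cattle. BOLA-DRA dipped at the middle stage, BOLA-DMA was lower at the late stage in all 9 cattle, and BOLA-DOA, TAP1 and TAP2 peaked at the middle stage; open points were not well above background.

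Class II genes did not follow a common course. BOLA-DRA, the alpha chain of the DR molecule, dipped at the middle stage. It measured 5.68 to 7.13 at the early stage (median 6.52), 3.04 to 5.77 at the middle stage (median 5.17) and 5.26 to 6.58 at the late stage (median 6.16). The early and middle ranges overlapped only between 5.68 and 5.77, and the late range lay within the span of the others. It fell by 1.36 in the first period (limma adjusted *P* = 1.68e-04, SE 0.26) and rose by 1.09 in the second (SE 0.26, adjusted *P* = 9.08e-04), each in 9 of 9 cattle. Over the total period the difference was −0.27 (SE 0.26, adjusted *P* = 0.521). Before scaling, its median processed signal was 3530 in early, 589 in middle and 2930 in late biopsies. Without animal 4, whose middle biopsy had the lowest level, the first-period change was −1.06, and with slide as a random block the second-period rise of 1.01 had an limma adjusted *P* of 0.0734. With normexp that rise was 1.77.

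CD74, the invariant chain that escorts class II molecules, was lower at both later stages than at the early stage. Its level was 3.99 to 5.51 at the early stage (median 5.02), 3.63 to 4.74 at the middle (median 4.37) and 3.45 to 4.59 at the late stage (median 4.22). The first-period fall of 0.68 (limma adjusted *P* = 0.00308, SE 0.18) was seen in 8 of 9 cattle, and so was the total-period fall of 0.71 (SE 0.18, adjusted *P* = 0.00901). The second-period difference was −0.03 (SE 0.18, adjusted *P* = 0.872). CD74 thus did not return with BOLA-DRA: within animals BOLA-DRA rose by 1.12 more than CD74 in the second period (SD 0.61, 9 of 9 cattle, exact sign-flip *P* = 0.00391, two-sided). With normexp background correction the second-period difference of CD74 was 0.61 (limma adjusted *P* = 0.0457) and its total-period difference −0.41 (adjusted *P* = 0.419). With slide as a random block the total-period difference was −0.88 (limma adjusted *P* = 0.241).

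Relative to the array median, BOLA-DMA, the alpha chain of the DM peptide editor, was level through the first period and lower at the late stage. It measured 3.90 to 4.50 at the early stage (median 4.09), 3.76 to 4.47 at the middle (median 4.18) and 2.63 to 3.48 at the late stage (median 3.09). Late values lay below every early and every middle value. The first-period difference was 0.02 (limma adjusted *P* = 0.883, SE 0.10), and the gene then fell by 1.08 in the second period (SE 0.10, adjusted *P* = 3.91e-08) and by 1.06 over the total period (SE 0.10, adjusted *P* = 5.11e-07), in 9 of 9 cattle. With normexp background correction these falls were 0.37 (adjusted *P* = 0.147) and 0.73 (adjusted *P* = 0.0642). Before scaling, its median processed signal was 717 in early, 341 in middle and 329 in late biopsies. The unscaled signal thus fell in the first period and was nearly level in the second, while the array medians fell and rose.

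BOLA-DMB, its partner beta chain, was well above background on 3 of 9 early arrays and on none of the middle or late arrays. Its measured means were −3.17 ± 1.23, −3.64 ± 0.77 and −3.79 ± 0.60 (SD, n = 9 each), and it was not a DEG in any period (limma adjusted *P* 0.284, 0.730 and 0.279). No statement on the pairing of DM chains can be made from this probe.

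BOLA-DOA, the alpha chain of the DO protein that restrains DM, was highest at the middle stage. It measured 0.77 to 1.86 at the early stage (median 0.99), 1.49 to 3.21 at the middle (median 1.98) and 0.90 to 1.42 at the late stage (median 1.30). Every late value lay below every middle value. It rose by 0.97 in the first period (limma adjusted *P* = 6.45e-05, SE 0.17) and fell by 0.81 in the second (SE 0.17, adjusted *P* = 2.41e-04), in 9 of 9 cattle each time, and the total-period difference was 0.16 (SE 0.17, adjusted *P* = 0.566). Its median signal before scaling was 82.9, 73.1 and 88.9, so the unscaled signal did not rise at the middle stage. With normexp background correction the changes were 0.36 and −0.20 in the first and second periods, both still called by limma (adjusted *P* = 2.50e-04 and 0.00551).

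The TAP genes had the same direction as BOLA-DOA. TAP1, 1 subunit of the peptide transporter of the class I pathway, measured 0.52 to 1.39 at the early stage (median 0.71), 1.03 to 2.09 at the middle (median 1.52) and 0.47 to 1.13 at the late stage (median 0.72). It rose by 0.83 in the first period (limma adjusted *P* = 6.96e-06, SE 0.11) and fell by 0.89 in the second (SE 0.11, adjusted *P* = 1.59e-06), in 9 of 9 cattle each. Its unscaled median signal was 62.7, 56.3 and 58.3. As for BOLA-DOA, the signal itself was level while the array medians fell and rose. With normexp the TAP1 changes were 0.23 and −0.24, both still called by limma (adjusted *P* = 8.87e-04 and 2.49e-04).

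TAP2, the other subunit, measured 2.22 to 3.94 at the early stage (median 2.92), 2.63 to 4.45 at the middle (median 3.80) and 2.42 to 3.47 at the late stage (median 2.81). The ranges of all 3 stages overlapped. It rose by 0.66 (limma adjusted *P* = 0.00245, SE 0.17) and fell by 0.78 (SE 0.17, adjusted *P* = 4.99e-04), each in 8 of 9 cattle. Over the total period TAP1 and TAP2 differed by −0.06 (SE 0.11, adjusted *P* = 0.782) and −0.12 (SE 0.17, adjusted *P* = 0.701). With normexp background correction the TAP2 rise was 0.17 (adjusted *P* = 0.508) and its second-period difference −0.10 (adjusted *P* = 0.690). With slide as a random block they were 0.50 and −0.67 (limma adjusted *P* = 0.129 and 0.0672).

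The probe of B2M, the light chain of class I molecules, was dim and read lower at the late stage. Its early mean of −1.19 lay far below those of the class I chain probes BOLA-NC1 (8.01), BOLA-A (6.11) and BOLA-N (3.31). Whether it reads the main B2M transcript was not tested. It measured −1.54 to −0.51 at the early stage (median −1.25), −2.85 to 0.66 at the middle (median −1.48) and −2.69 to −1.79 at the late stage (median −2.53). The probe was well above background on 9 early, 6 middle and 6 late arrays, and early and late values did not overlap. It fell by 1.03 in the second period (limma adjusted *P* = 0.00138, SE 0.26, 7 of 9 cattle) and by 1.21 over the total period (SE 0.26, adjusted *P* = 0.00233, 9 of 9 cattle). With quantile normalization the second-period difference was −0.40 (adjusted *P* = 0.423) and the total-period difference −1.06 (adjusted *P* = 0.093), and with slide as a random block they were −0.89 and −1.15 (limma adjusted *P* = 0.0998 and 0.286). With normexp the values were −0.35 and −0.24, both still called.

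A probe outside the selection rule is described on the array as the class II transactivator and lies at chr25:9649860-9649919. It was not well above background on any of the 27 arrays, so this gene was not measured at a usable level.

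**Figure D2:**
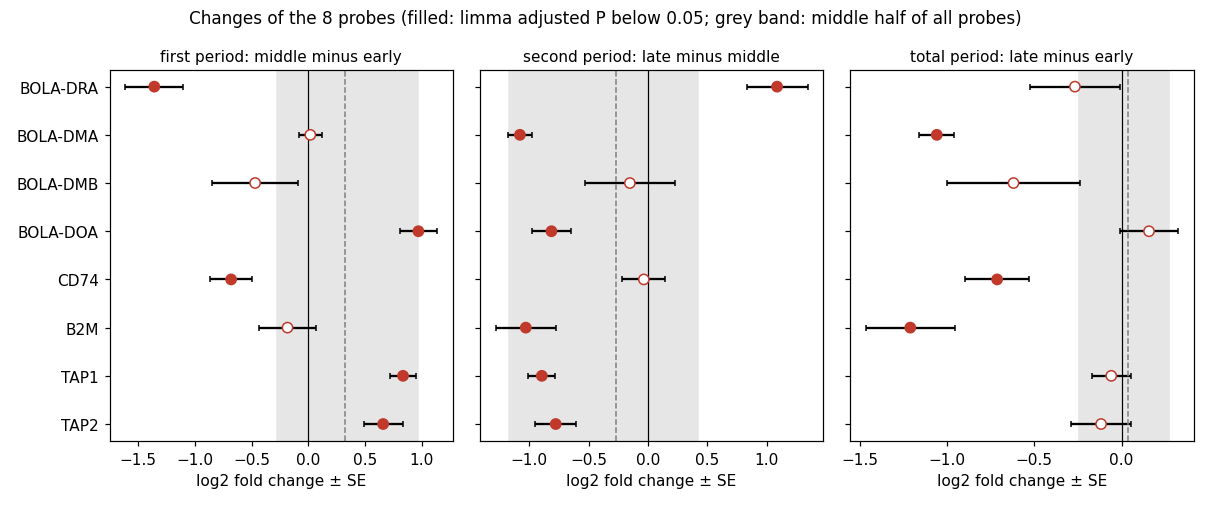
Log2 fold changes ± SE of the 8 probes in the 3 periods, with filled points for DEGs, a dashed line for the median of all probes and a grey band for their interquartile range. BOLA-DRA lay on the opposite side of 0 from BOLA-DOA, TAP1 and TAP2 in the first and second periods.

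Of the 8 genes, 5 were DEGs in the first period (3 higher, 2 lower), where 66.5% of all probes were called. In the second period 6 were DEGs (1 higher, 5 lower), against 71.5% of all probes, and in the total period 3, all lower, against 20.1% of all probes (11.2% higher and 8.93% lower). The share called in the first and second periods was thus near that of all probes. The median change of the 8 genes was −0.08, −0.79 and −0.44 in the first, second and total period. Late values lay below all early values in 2.49% of all probes, as for BOLA-DMA and B2M, and below all middle values in 10.4%, as for BOLA-DMA and BOLA-DOA.

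Differences between the changes of 2 genes on the same arrays do not depend on the scaling of an array. Such differences were therefore computed for the 6 genes well above background on all arrays, 45 comparisons of gene pairs chosen after the data had been seen. With Benjamini-Hochberg adjustment over the 45, 12 of 15 pairs differed in the first period, 9 of 15 in the second and 9 of 15 in the total period. The smallest *P* that 9 cattle allow is 0.0039.

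In the first period BOLA-DRA changed by 2.19 less than TAP1 (SD 1.30) and CD74 by 1.51 less (SD 0.83), each in 9 of 9 cattle (exact *P* = 0.00391, adjusted 0.00765). BOLA-DRA also fell by 0.68 more than CD74 (SD 0.64, 9 of 9 cattle, exact *P* = 0.00391). BOLA-DOA, TAP1 and TAP2 did not differ from each other in that period beyond their spread, with mean differences of 0.14 (SD 0.37), 0.31 (SD 0.78) and 0.18 (SD 0.64) and exact *P* of 0.297, 0.281 and 0.441.

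Over the total period BOLA-DMA fell by 1.00 more than TAP1 (SD 0.29), in 9 of 9 cattle (exact *P* = 0.00391). CD74 fell by 0.45 more than BOLA-DRA (SD 0.12), again in 9 of 9 cattle. BOLA-DMA and CD74 differed by −0.35 (SD 0.47, exact *P* = 0.0508, adjusted 0.0714).

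**Figure D3:**
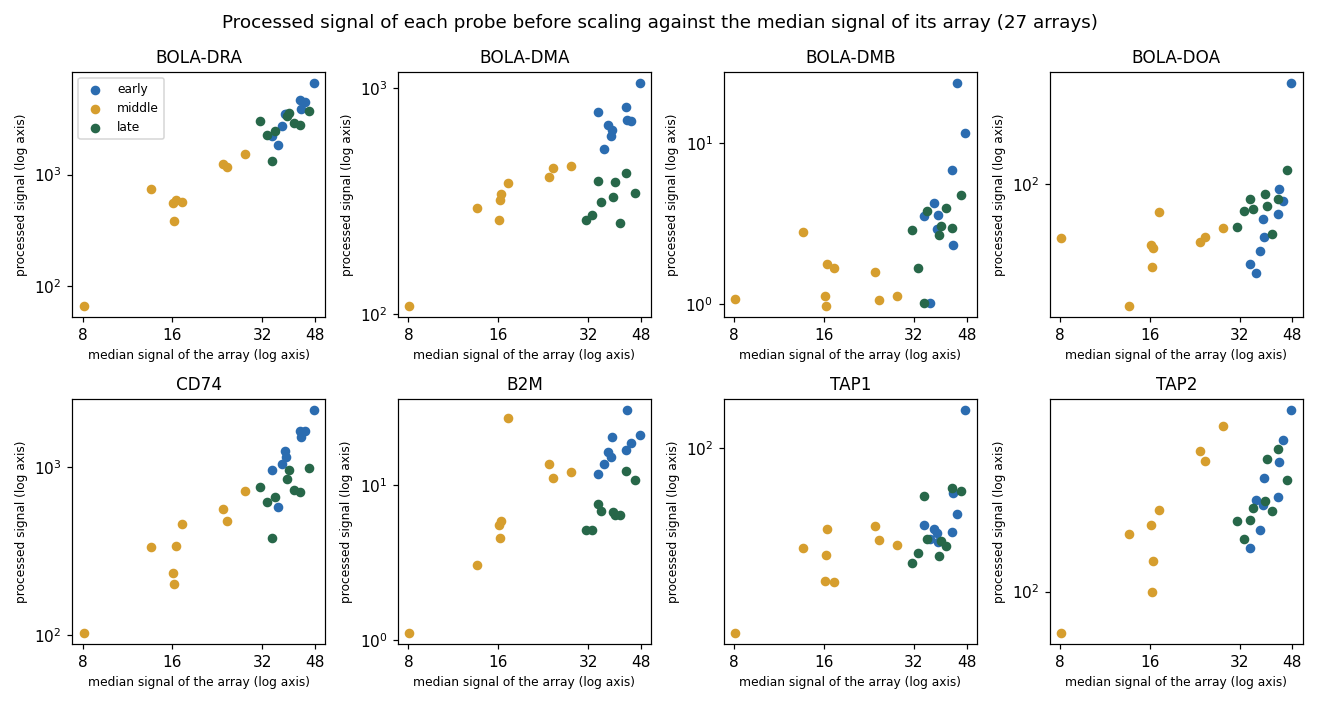
Processed signal of each probe before scaling (vertical, log axis) against the median signal of its array (horizontal, log axis), 27 arrays colored by stage. Signals of BOLA-DRA and CD74 fell with the dim middle-stage arrays, those of BOLA-DOA and TAP1 stayed in a narrow range, and late BOLA-DMA signals lay below early ones at like array medians.

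The first-period calls rested on the comparison of arrays across slides. With the 16 early and middle arrays of the first scan day alone, an alternative added after the data had been seen, all 5 calls stood. Slide as a fixed block makes a comparison that rests on the arrays of animals 8 and 9. With it, B2M alone was called (−3.06, limma adjusted *P* = 0.0182). Slide 2 alone holds 1 early array, that of animal 9, and the middle arrays of animals 1 to 7. No animal is paired on it, so its differences set 7 cattle against 1 other animal. The differences there were −2.14 for BOLA-DRA, −1.36 for CD74, 0.17 for BOLA-DOA, 0.19 for TAP1 and −0.33 for TAP2.

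A list of other MHC chains was next considered. It does not hold every such chain on the array, since BLA-DQB is not in it, and many chains share sequence, so a probe may read a relative of the gene it names. Of all probes, 45.3% were higher and 21.3% lower in the first period, 27% and 44.6% in the second, and 11.2% and 8.93% in the total period, and the counts of this and the following lists are to be read against these shares. Of 23 measured, 5 were higher and 7 lower in the first period, 3 and 7 in the second, and 0 and 5 in the total period. The median changes of the 23 were −0.03, −0.29 and −0.45. Only 7 of them were well above background on all 27 arrays. Of these 7, 0 were higher and 4 lower in the first period, 1 and 1 in the second, and 0 and 3 in the total period.

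Among class II chains, BOLA-DQA1, a DQ alpha chain, fell by 2.41 in the first period (limma adjusted *P* = 5.92e-07, SE 0.26) and rose by 1.32 in the second. Over the total period it stayed lower by 1.09 (limma adjusted *P* = 0.00578), and it was higher in 1 of 9 cattle. Its probe was well above background on 9, 5 and 8 of 9 arrays at the 3 stages. BOLA-DRB3, the main expressed DR beta chain, changed by 0.13, −0.08 and 0.05 in the 3 periods (SE 0.16) and was not a DEG in any. The difference between the changes of BOLA-DRA and BOLA-DRB3 was not tested. BOLA-DQA5 was well above background on 1, 1 and 2 of 9 arrays at the 3 stages, and no change is given for it.

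Among class I chains, BOLA-N, a classical-type heavy chain, fell by 1.07 in the first period (limma adjusted *P* = 2.14e-04, SE 0.21), by 0.55 in the second (adjusted *P* = 0.0238) and by 1.61 over the total period (adjusted *P* = 1.92e-05, 9 of 9 cattle). FCGRT, the class I-like neonatal Fc receptor chain, fell by 1.83 in the first period (limma adjusted *P* = 1.41e-08) and rose by 1.76 in the second (adjusted *P* = 6.00e-09), and its total-period difference was −0.07 (adjusted *P* = 0.782, SE 0.14). Its probe was well above background on 6 of 9 middle arrays.

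**Figure D4:**
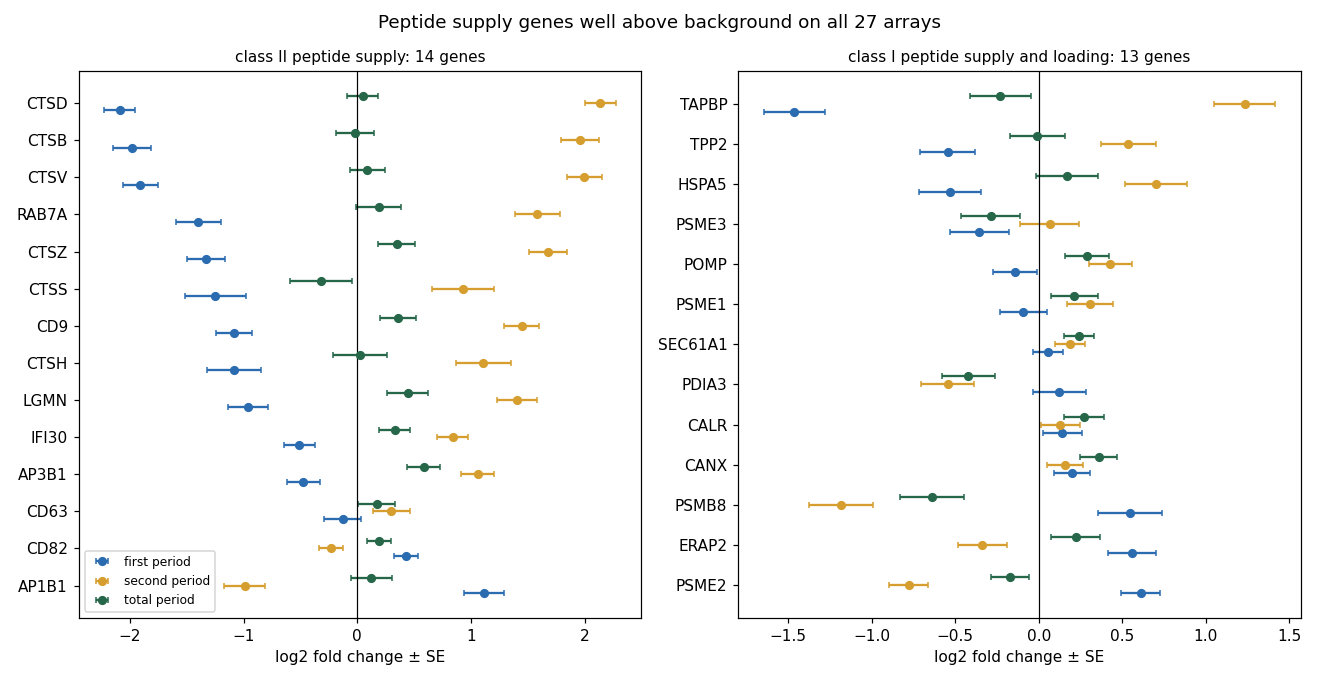
Log2 fold changes ± SE in the first, second and total periods of the peptide supply genes well above background on all 27 arrays, 14 of the class II route and 13 of the class I route. Class II genes were mostly lower in the first and higher in the second period, led by CTSD at −2.09 and 2.13, while class I genes moved in both directions.

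Genes of class II peptide supply, such as lysosomal proteases and the proteins of endosomal sorting, more often fell than rose in the first period and more often rose than fell in the second. Of 18 measured, 11 were lower and 2 higher in the first period, 11 higher and 1 lower in the second, and 1 higher and 0 lower in the total period. The list's medians were −0.74, 0.99 and 0.15.

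CTSD, the protease cathepsin D, fell by 2.09 in the first period (limma adjusted *P* = 2.52e-09, SE 0.14) and rose by 2.13 in the second (SE 0.14, adjusted *P* = 3.68e-10), each in 9 of 9 cattle. AP1B1, a subunit of a clathrin adaptor, ran the other way with 1.11 (SE 0.18, adjusted *P* = 3.82e-05) and −0.99 (SE 0.18, adjusted *P* = 7.88e-05). AP3B1, a subunit of the adaptor that sorts cargo to lysosomes, was the sole gene of the list called over the total period, at 0.58 (SE 0.15, adjusted *P* = 0.00769, 9 of 9 cattle).

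Genes of class I peptide supply and loading moved in both directions. Of 18 measured, 5 were higher and 3 lower in the first period, 4 and 6 in the second, and 1 and 1 in the total period, with medians of 0.07, 0.08 and 0.01. TAPBP, the tapasin that bridges TAP to class I chains, fell by 1.46 in the first period (limma adjusted *P* = 2.77e-06, SE 0.18) and rose by 1.23 in the second (adjusted *P* = 9.24e-06), opposite to TAP1. PSMB8, an immunoproteasome subunit, changed by 0.55 (SE 0.19, adjusted *P* = 0.0176), −1.18 (adjusted *P* = 2.54e-05) and −0.64 (adjusted *P* = 0.0242).

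PSME2, a proteasome activator subunit, rose by 0.61 in the first period (limma adjusted *P* = 1.62e-04, SE 0.11), in the direction of TAP1. CANX, the chaperone calnexin, rose by 0.36 over the total period (SE 0.11, adjusted *P* = 0.0259). PSMB9, another immunoproteasome subunit, was well above background on 1, 0 and 1 of 9 arrays at the 3 stages.

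Genes of transcriptional control moved in both directions. Of 21 measured, 6 were higher and 9 lower in the first period, 9 and 5 in the second, and 1 and 2 in the total period. The medians of the list were −0.15, 0.13 and 0.13. NLRC5 had no probe under that name.

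RFX5, a subunit of the factor that binds class II promoters, rose by 0.86 in the first period (limma adjusted *P* = 0.00298, SE 0.23), and its other differences were −0.23 and 0.63 (adjusted *P* = 0.376 and 0.0587). IFNGR1, the interferon gamma receptor chain, fell by 1.47 (SE 0.18, adjusted *P* = 3.06e-06) and rose by 1.42, as BOLA-DRA did.

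IRF2, an interferon regulatory factor, rose by 1.14 in the first period (limma adjusted *P* = 7.05e-06, SE 0.15), and CREB1, a factor that binds class II promoters, fell by 1.14 in the second (SE 0.12, adjusted *P* = 1.19e-07). JAK1, the kinase of interferon receptors, fell by 3.31 (SE 0.38, adjusted *P* = 1.15e-06) and rose by 3.52. Its probe was well above background on 6 of 9 middle arrays, where its SD was 1.46. PRDM1, a repressor of the class II transactivator, rose by 0.58 over the total period (SE 0.18, adjusted *P* = 0.0319). IRF1 was well above background on 1, 1 and 0 of 9 arrays at the 3 stages.

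Markers of cells that present antigen were set beside these changes, and they did not move together. Of 22 dendritic, macrophage and B cell markers, 7 were higher and 3 lower in the first period, 5 and 7 in the second, and 2 and 2 in the total period. Of the 7 higher in the first period, 5 (CD80, XCR1, MARCO, MS4A1 and CD79A) were well above background on at most 1 of 9 arrays at either stage. The log2 of the summed level of the list ranged from 6.61 to 8.22 at the early, 6.60 to 6.97 at the middle and 7.67 to 8.12 at the late stage. LAMP3 had the highest late mean of the list, with means of 5.81, 3.38 and 7.12 at the 3 stages. The late sum rests largely on it, so the sum does not measure the number of such cells.

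The markers lower in the first period were LAMP3, CD86 and BLK. LAMP3, a marker of mature dendritic cells also made by epithelia, fell by 2.43 in the first period (limma adjusted *P* = 7.57e-07, SE 0.27), rose by 3.74 in the second (adjusted *P* = 1.69e-09) and was higher by 1.31 over the total period (adjusted *P* = 0.0019). CD86, a costimulatory molecule of presenting cells, fell by 1.12 (limma adjusted *P* = 0.0023, SE 0.29, 8 of 9 cattle) and rose by 0.88 (adjusted *P* = 0.0101, 7 of 9 cattle), the directions of BOLA-DRA. Its probe was well above background on 6 of 9 middle arrays. BLK, a B cell kinase, fell by 0.86 in the first period (limma adjusted *P* = 0.00785, SE 0.26) and by 1.34 over the total period (adjusted *P* = 0.00139).

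CSF1R, AIF1 and CD14, markers of macrophages, differed by −0.06, −0.06 and 0.00 in the first period (SE 0.15, 0.22 and 0.20), and CD207, the Langerhans cell marker, by 0.09 (SE 0.21, well above background on 9, 7 and 9 arrays). These 4 were not DEGs in that period. CD86 and these 4 were named after their values had been seen. The part of such cells in the falls of BOLA-DRA and CD74 was not tested.

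Of 23 T cell and common leukocyte markers, 3 were higher and 7 lower in the first period, 2 and 9 in the second, and 0 and 9 in the total period. Their summed level ranged from 6.88 to 7.98 at the early, 6.82 to 7.98 at the middle and 6.50 to 7.35 at the late stage. PTPRC, the common leukocyte antigen, fell by 1.24 in the second period (limma adjusted *P* = 7.85e-05, SE 0.23), whereas CD3G, a chain of the T cell receptor complex, rose by 2.08 (limma adjusted *P* = 1.65e-05, SE 0.32, 8 of 9 cattle). CD3D, another chain of that complex, rose by 1.496 in that period (limma adjusted *P* = 3.09e-05, SE 0.25). Its probe was well above background on 9, 2 and 9 arrays at the 3 stages. CD3E, a further chain of it, fell by 1.68 (limma adjusted *P* = 1.4e-06, SE 0.21) and was higher in 0 of 9 cattle. CD3D and CD3E were named after their values had been seen. Whether these markers had a part in the falls of CD74, BOLA-DMA and B2M was not tested.

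Of 24 stratified epithelium markers, 6 were higher and 13 lower in the first period, 9 and 6 in the second, and 2 and 2 in the total period. Their summed level ranged from 12.6 to 13.1 at the early, 11.9 to 13.1 at the middle and 12.9 to 13.2 at the late stage. Of 17 fibroblast, endothelial and muscle markers, 4 were higher and 2 lower in the first period, 1 and 8 in the second, and 1 and 3 in the total period, with summed levels of 7.59 to 9.99, 7.51 to 10.7 and 7.49 to 8.99. Their part in the changes of the MHC genes was not tested.

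Probes most like BOLA-DRA and TAP1 were sought among 6758 probes well above background, by Pearson's r over the 27 arrays after stage and animal means had been removed. The arrays share brightness and slide, so r is a description. For BOLA-DRA they were SH3BP2 (0.915), IGFBP7 (0.912), BLA-DQB, named as a DQ beta chain (0.894), DSB, a class II beta chain gene (0.875), and FLI1 (0.873). Without animal 4 the values were 0.730, 0.783, 0.916, 0.912 and 0.592, so the 2 class II chains then led these 5.

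For TAP1 they were SERPINB5 (0.922), SLC7A8 (0.918), RND2 (0.909), RIMS3 (0.906) and PSKH1 (0.905), none of them an MHC gene, and without animal 4 they measured 0.888, 0.858, 0.833, 0.820 and 0.924. Among the members themselves, r was 0.783 for BOLA-DRA with CD74 and 0.796 for BOLA-DMA with CD74. It was 0.836 for BOLA-DOA with TAP1 and −0.204 for TAP1 with TAP2. Biopsies high in BOLA-DRA for their animal and stage were thus mostly high in CD74 too, and those high in TAP1 were not mostly high in TAP2.

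**Figure D5:**
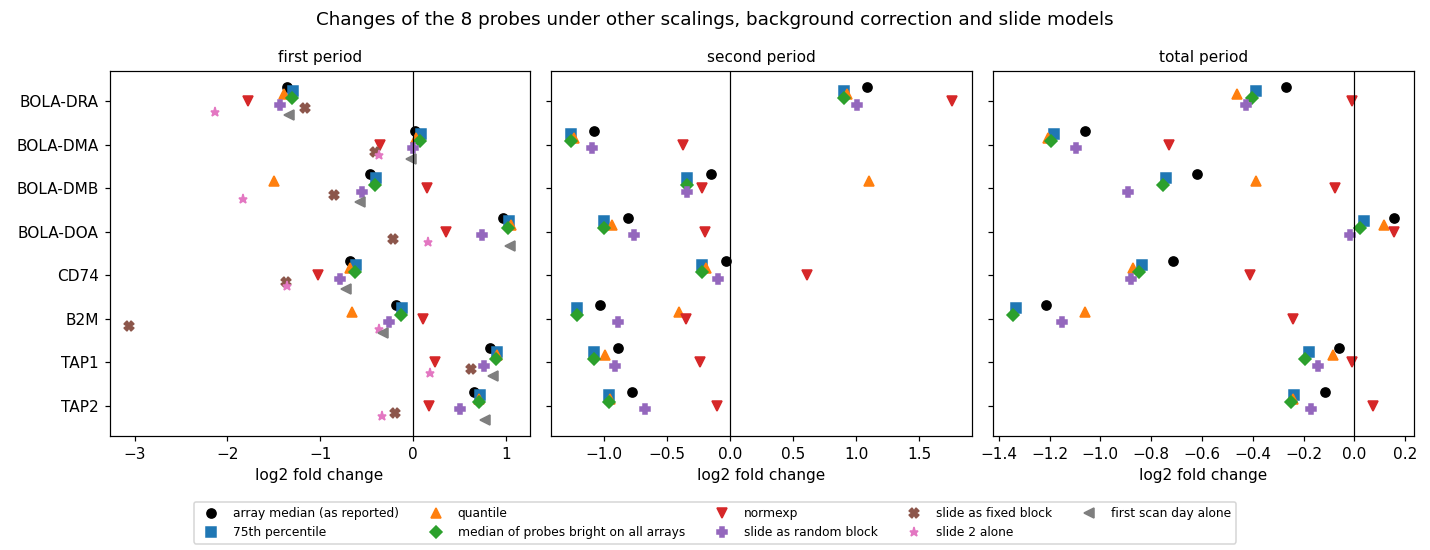
Log2 fold changes of the 8 probes in each period under the array median scaling, other scalings, normexp background correction and slide models, with 1 symbol per setting. BOLA-DRA kept its sign in the first and second periods under every setting shown. In the first period BOLA-DOA changed sign with slide as a fixed block, and TAP2 with that block and on slide 2 alone. BOLA-DMA, BOLA-DMB and B2M, not DEGs in that period, changed sign with normexp. In the second period CD74 changed sign with normexp and BOLA-DMB with quantile normalization.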

How the data were processed

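Total RNA of 27 RE biopsies was measured on custom bovine arrays in 1 color (cyanine 3). The intensity values deposited by the authors come from Agilent Feature Extraction (version 9.5 per the submitters' notes, 11.0.1.1 per the file headers), which subtracts background, and marked each spot as well above background, saturated or an outlier; these 0 or 1 scores are as deposited. The authors' series matrix of log2 values served as an alternative only. Its scale is log2.

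Analyses used R 4.3.3, limma 3.58.1 and statmod 1.5.0. The median log2 processed signal of each array was subtracted, outlier spots (0.0252%) were left missing and saturated spots kept, and spots of a probe were averaged. The model held stage means and an animal effect, with adjustment over 15008 probes. Each animal was biopsied at every stage, and arrays were paired by the running number in their titles. That this number marks the same animal at each stage was inferred, since the labels do not state it. Deviations correlated at a mean r of 0.158 within animals so paired (−0.151 to 0.461, above 0 in 24 of 27 pairs) and −0.020 between animals. Counts of cattle and sign-flip tests rest on this pairing. Single values were tested by exact sign flips over 9 cattle.

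Members and lists were chosen with earlier results of these data known. Named list genes are, per pathway list and period, the called gene with the largest rise and the largest fall among genes well above background throughout at least 1 of the stages compared, plus TAPBP, PSMB8, PSMB9, NLRC5, RFX5, IRF1, IFNGR1, BOLA-DRB3 and BOLA-DQA5; the result of 1 further gene is not reported here. Of the members, 6 matched the RefSeq gene table by accession. limma's procedure was tested on simulated data. Alternatives were other scalings, normexp with an offset of 50, removal of dim probes, outlier spots kept, the series matrix, no animal block, slide blocks, slide 2 alone, a fit of only the stages compared, the methods' t-test and each animal left out. Precision is limited by 9 arrays a stage and by signal over background.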

Additional observations from a re-analysis of the deposited data

Results flagged for a closer look

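In 7 of 24 groups of 9 arrays, 1 animal stood apart from the others by Dixon's criterion, which chance alone meets in about 1 of 20 groups. BOLA-DRA was lowest in animal 4 at the middle stage, at 3.04 against 4.57 for the next animal, and lowest in animal 1 at the late stage, at 5.26 against 6.04. BOLA-DOA was highest in animal 4 at the middle stage, at 3.21 against 2.33, and highest in animal 9 at the early stage, at 1.86 against 1.17. CD74 was lowest in animal 2 at the early stage, at 3.99 against 4.78, and lowest in animal 1 at the late stage, at 3.45 against 4.05. TAP1 was highest in animal 9 at the early stage, at 1.39 against 0.89. The middle-stage array of animal 4 had the lowest median signal of the 27 arrays, 8.06, and the early array of animal 9 was the single early array on slide 2 and had the highest, 47.6. Whether brightness or slide had a part in these values was not tested.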

How the results depend on the processing

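Of the changes of the 8 genes under the alternatives, 473 either kept call and direction or stayed uncalled, whatever their sign. A call was lost in 20 and gained in 3, and 5 turned sign with a call in at least 1 of the 2 settings. Uncalled values that changed sign, such as BOLA-DMA in the first period with normexp (−0.36), are among the 473. These 5 were BOLA-DOA (−0.22) and TAP2 (−0.19) in the first period with slide fixed, and TAP2 on slide 2 alone (−0.33). In the second period they were BOLA-DMB with quantile normalization (1.105) and CD74 with normexp (0.61). The number of called members was 1 in the first period with slide as a fixed block and 0 on slide 2 alone, 3 in the second with slide as a random block, and 1 in the total period with that block and 1 with normexp. Of the 80 genes of the pathway lists, 48, 46 and 11 were called. In the first period 6 were called with slide fixed and 0 on slide 2 alone (24 at an unadjusted limma P below 0.05). In the total period 2 were called with normexp, 1 with slide random, 24 by the methods' t-test and 25 with only the 2 stages in the fit. With each animal left out in turn, members called stayed at 5, 6 and 3, and pathway genes ranged from 45 to 48, 43 to 49 and 5 to 13; the lowest total-period counts came without replicate 5 (5), 6 (6) and 3 (7). Without the replicate block, members called were again 5, 6 and 3, and pathway genes 45, 43 and 9. Among called probes the share that was higher in the first period was 68.0%, and 51.3% with quantile normalization; in the second 37.7% and 51.3%; in the total period 55.6%, and 34.1% with 75th percentile scaling. The second and total periods could not be fitted with slide fixed or on slide 2 alone. The cause of these shifts was not tested.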
